A study of Mus musculus with 2 samples.

Results

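Strong peaks of H3K36me2 that were listed only in the colon library from *Nsd2* ΔIE mice are described here. The members were chosen by ranking the 23518 *Nsd2* ΔIE peaks on their summed signal, keeping the strongest 25% (5879 peaks, of which 5873 lay on autosomes), and removing every peak that shared at least 1 bp with a peak of the *Nsd2* fl/fl library. This left 2995 regions, 2995 of the 43494 peaks in both lists together. The study compared H3K36me2 by CUT&Tag between *Nsd2* fl/fl and *Nsd2* ΔIE mice in colon tissue, with 1 library per genotype. By the labels and methods, *Nsd2* fl/fl mice carry loxP sites in *Nsd2*, and in *Nsd2* ΔIE mice Villin-Cre removes the gene from the intestinal epithelium. The labels do not state the Cre status of the *Nsd2* fl/fl library. The methods give male littermates on a C57BL/6J background that entered the feeding at 7 to 8 weeks of age. Both groups received a high-fat cholesterol diet (HFCD), for 18 weeks in the methods and for 16 weeks in the deposited design text. The libraries came from whole colon tissue, in which stromal, immune and nerve cells are not targeted by Villin-Cre, and how many mice went into a library is not given in the sources used here.

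NSD2 is a histone methyltransferase that places methyl groups on lysine 36 of histone H3, chiefly as the dimethyl mark H3K36me2. The mark forms broad domains over gene bodies and between genes, is shared with other enzymes of the same family such as NSD1, and is known to oppose the repressive H3K27 methylation of Polycomb and to guide the DNA methyltransferase DNMT3A. In CUT&Tag, an antibody against the mark brings the transposase Tn5 to the chromatin, and the tagged DNA is sequenced.

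With a single library for each genotype, no difference between the genotypes was tested and the data have no replicate check. The value given for each peak, the summed signal, is the coverage added over its length, and the authors' scaling for depth is not stated. Signals were therefore ranked only within a list. The summed signal and the absence of an *Nsd2* fl/fl peak chose the members and are given as a description. A region with no *Nsd2* fl/fl peak is one where that list holds no call, and its lowest summed signal was 21783, against 16571 in *Nsd2* ΔIE. Intervals given with shares and medians are 95% intervals that cover counting of peaks only. In whole tissue, fewer cells that carry the mark and less of it per cell cannot be told apart. At *Nsd2* itself, the *Nsd2* fl/fl library had no peak, and the *Nsd2* ΔIE library had a promoter peak of 3766 bp at chr5:33973260-33977025. Its summed signal of 18021 put it at rank 18061, so it was not a member.

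The start sites of a few strong members give examples of the DNA that these regions covered. Of the 500 members that reached over a transcription start site (TSS), 116 could be matched to genes with a single promoter in the RefSeq table and the same gene length there as in the lists, with 1 chromosome left out that is not printed here. Printed are the 250 bases before the start of the 4 strongest of them, 5′ to 3′, all on the plus strand of GRCm38.p6, with every CG dinucleotide (CpG) in capitals. The peak lists use another build, so these positions are not those of the peaks. The windows are chr17:72918055-72918304 for *Lbh*, chr17:25184311-25184560 for *BC003965*, chr2:35883396-35883645 for *Gm35396* and chr4:130308488-130308737 for *Fabp3*.
Lbh: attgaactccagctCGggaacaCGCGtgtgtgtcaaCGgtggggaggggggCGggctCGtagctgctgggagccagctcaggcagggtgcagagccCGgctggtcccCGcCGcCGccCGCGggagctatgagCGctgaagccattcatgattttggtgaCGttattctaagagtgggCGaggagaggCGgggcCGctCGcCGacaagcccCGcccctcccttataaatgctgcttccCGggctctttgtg
BC003965: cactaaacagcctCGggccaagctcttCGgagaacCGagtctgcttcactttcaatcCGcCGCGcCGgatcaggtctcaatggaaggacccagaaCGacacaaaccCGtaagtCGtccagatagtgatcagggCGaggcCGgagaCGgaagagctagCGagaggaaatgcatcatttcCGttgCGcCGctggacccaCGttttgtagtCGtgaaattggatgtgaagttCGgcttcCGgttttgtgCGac
Gm35396: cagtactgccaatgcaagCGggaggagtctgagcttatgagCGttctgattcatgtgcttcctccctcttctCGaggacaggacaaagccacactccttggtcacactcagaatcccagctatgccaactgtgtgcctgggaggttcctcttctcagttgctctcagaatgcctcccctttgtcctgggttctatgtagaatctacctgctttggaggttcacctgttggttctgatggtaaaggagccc
Fabp3: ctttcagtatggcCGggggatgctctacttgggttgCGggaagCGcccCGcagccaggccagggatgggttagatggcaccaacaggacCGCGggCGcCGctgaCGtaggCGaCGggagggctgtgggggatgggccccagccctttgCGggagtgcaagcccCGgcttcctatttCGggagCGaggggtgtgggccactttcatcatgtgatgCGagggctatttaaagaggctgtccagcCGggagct

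The window of *Lbh*, a transcriptional regulator of limb and heart development, held 21 CpGs and 64.8% G and C. That of *BC003965* held 22 CpGs and 55.2% G and C, and that of *Fabp3*, a fatty acid-binding protein of heart and muscle, held 17 CpGs and 64.8% G and C. The predicted gene *Gm35396* differed, with 3 CpGs and 52.0% G and C. CpG-rich and CpG-poor starts thus both lay among these 4, whose peaks had ranks 234, 281, 512 and 560 in the list. The *Lbh* peak was 11202 bp wide with a summed signal of 63090 and lay 182489 bp from the nearest *Nsd2* fl/fl peak. The *Fabp3* peak was 8867 bp wide with a summed signal of 51627, and an *Nsd2* fl/fl peak of the same gene lay 4156 bp away. The *BC003965* and *Gm35396* peaks had summed signals of 60315 and 52884 and lay 9530 bp and 2333 bp from the nearest *Nsd2* fl/fl peak.

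Across the genes with a member over the TSS, 238 of 497 had a single promoter in the table, and the median number of CpGs in its 300 bases (250 before the start and 50 after) was 8 (95% interval 7 to 11). It was 11 (8 to 14) for 297 genes with a strong shared peak over the TSS and 7 for all 22862 single promoters. At least 20 CpGs were found in 27.7% (22.4% to 33.7%) of the members' promoters, in 33.3% (28.2% to 38.9%) of those under strong shared peaks and in 26.3% of all. The intervals of the first 2 shares overlapped, and the members' share lay close to that of all promoters. The letters TATAAA, searched on both strands, were present in 10.1% of the members' promoters, 4.04% of those under strong shared peaks and 14.8% of all. GGGCGG occurred in 42.0%, 51.9% and 35.2%, and CCAAT in 26.1%, 34.0% and 38.2%, in the same order. Promoters under the strong peaks only in *Nsd2* fl/fl had 9.62% with TATAAA, 51.5% with GGGCGG and 27.3% with CCAAT, close to the members for TATAAA and CCAAT. These are matches of letters in a window and not sites of a factor. No intervals were computed for these shares, so the differences between the sets cannot be weighed.

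The share of unmatched peaks differed by rank in both libraries, as a description, since the rule used both values. The part of width in this was not tested. No *Nsd2* fl/fl peak overlapped 69.3% of the 23507 autosomal *Nsd2* ΔIE peaks, and in the strongest 25% the share was 51.0%, which are the members. Ranked by mean signal per bp instead, the strongest 25% had 63.0% without a counterpart. When the autosomal peaks were split into 10 equal parts by summed signal, 36.6% of the strongest part (34.7% to 38.6%) and 80.3% of the weakest part (78.6% to 81.9%) had no counterpart. The reverse count behaved in the same way, with 29.1% of the strongest and 77.7% of the weakest *Nsd2* fl/fl peaks lacking an *Nsd2* ΔIE peak. Chosen by the same rule in the other direction, 2217 of 4988 strong autosomal *Nsd2* fl/fl peaks were only in that library, 44.4% (43.1% to 45.8%). Unmatched strong peaks were thus present in both directions, and the share due to the genotype cannot be told apart from the difference between any pair of libraries.

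**Figure D1:**
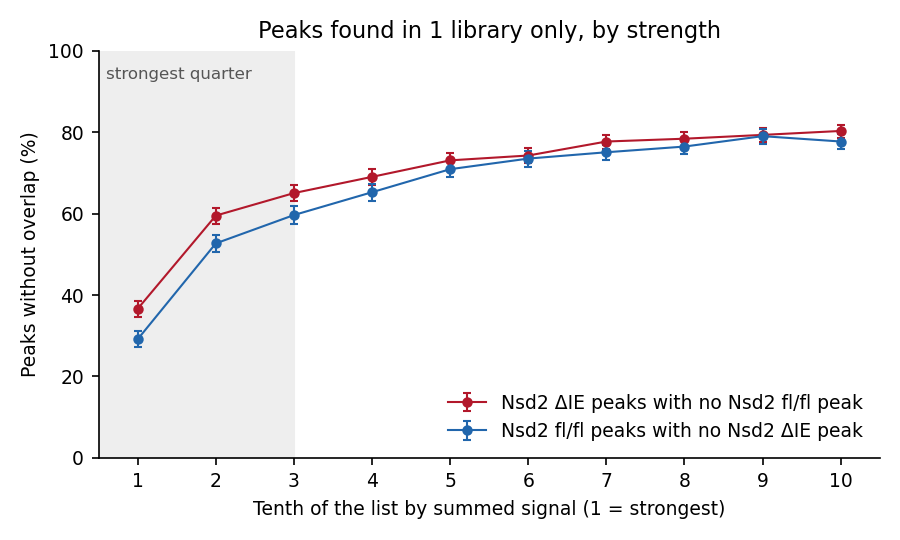
Share of autosomal peaks without an overlapping peak in the other library (vertical axis, %), for 10 equal parts of each list from the strongest to the weakest summed signal. Points are shares, bars their 95% Wilson intervals, and the grey band marks the strongest 25%. The share climbs from 36.6% to 80.3% in *Nsd2* ΔIE and from 29.1% to 77.7% in *Nsd2* fl/fl.

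The summed signals of the members ran from 25216 to 89560 with a median of 29622. The middle 50% lay between 27033 and 35104.5, so that most members stood close to the limit. Their width had a median of 4749 bp and ran from 1990 to 14233 bp, and together they covered 14.97 Mb. Ranked by mean signal per bp instead, the median width was 2519 bp, and 26.9% of the members were still among the regions chosen. The strong shared peaks had a median width of 5143.5 bp and reached 53527 bp, while the 13301 weaker unshared peaks had a median of 3171 bp. Per bp, the members' signal had a median of 6.50 and a maximum of 13.97. Shared strong peaks had a median of 6.84 per bp and a maximum of 373.1, so the very dense peaks of the library were not among the members. Just inside the limit stood *Gm34795* and *Twsg1*, each with 25218, and *Neurl1b* with 25216. Just outside it stood unshared peaks of *Gm32569* with 25214 and of *Gm30782* and *Ppp1r9a* with 25213 each.

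The strongest member was a peak of 12833 bp at chr5:114744020-114756852, with a summed signal of 89560, rank 48 in the list. It was annotated to a 3′ UTR with the predicted gene *Gm34844* nearest, and an *Nsd2* fl/fl peak of 10069 bp of the same gene lay 7793 bp away. The second, with 85708, was also the widest, 14233 bp over the start of *Pfkfb4*, an enzyme that sets fructose bisphosphate levels in glycolysis (chr9:108824524-108838756). No *Nsd2* fl/fl peak was annotated to *Pfkfb4*, and the nearest one, of *Mir711*, lay 15186 bp away. The third, with 84705, covered the start of *Mpped1*, a metallophosphoesterase-domain gene, over 12446 bp. The strongest 3 thus held a gene end and a pair of start sites.

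Among the next strongest, the peaks of *Iqank1* (84151) and *Ncoa3* (74303), a coactivator of nuclear receptors, were annotated to 5′ UTRs. That of *Mob3a* (81160), of the MOB kinase activator family, lay 1 to 3 kb from its start, and that of *Ccdc97* (79736) in a 3′ UTR. *Iqsec1* (78709), an exchange factor for Arf GTPases, had its member in exon 4 of 14, one of 13 *Nsd2* ΔIE and 9 *Nsd2* fl/fl peaks of the gene. The peak named for *Gm51646* (79001) lay in exon 17 of 22 of *Nfasc*, which encodes the adhesion protein neurofascin. The nearest gene is the one whose TSS is closest, so it can differ from the gene that a peak lies in. All 10 of the strongest members had an *Nsd2* fl/fl peak within 21466 bp.

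The densest members were narrow and lay by predicted or noncoding genes. The highest value was 13.97 per bp over 1990 bp in intron 1 of 39 of *Prex1*, a Rac exchange factor, with *Gm50596* as the nearest gene. *Gm34035* had 13.15 per bp, *Gm26562* 13.12, *Gm51910* 12.99 in intron 1 of 9 of the ion channel gene *Asic2*, and *9630028I04Rik* 12.86. Their widths were 1990 to 2528 bp, below the members' median. After *Pfkfb4*, the widest members included those of *Foxd2*, a forkhead transcription factor (a peak 13572 bp wide, annotated downstream of the gene), *Gm34844* and *Mpped1*.

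Promoters made up less of the members than of the strong peaks that both libraries shared, and intergenic DNA made up more. With promoters annotated by the authors up to 3 kb from the TSS, 936 members lay at promoters, 31.3% (29.6% to 32.9%), against 40.6% (38.8% to 42.4%) of strong shared peaks. Distal intergenic regions held 544 members, 18.2% (16.8% to 19.6%), against 8.76% (7.78% to 9.84%). Introns after the first held 13.0% (11.8% to 14.2%) against 8.44% (7.48% to 9.52%). The intervals did not overlap in any of these 3 comparisons. Against all autosomal *Nsd2* ΔIE peaks the order was the other way for all 3 features. Of all peaks, 27.8% (27.3% to 28.4%) lay at promoters and 20.1% (19.6% to 20.7%) in distal intergenic regions. Introns after the first held 15.6% (15.2% to 16.1%) of them. Peaks within genes but outside promoters were 49.6% of members and 50.1% of shared peaks, a difference within the intervals.

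Weaker unshared peaks went further in the same direction, with 23.3% at promoters and 3325 of 13301 in distal intergenic regions. Strong peaks found only in *Nsd2* fl/fl had 37.0% (35.0% to 39.0%) at promoters and 14.7% (13.2% to 16.2%) in distal intergenic regions, but they were wider, with a median of 6553 bp. The contrast with shared peaks was present in that library too, where strong shared peaks had 46.6% (44.7% to 48.5%) at promoters and 194 of 2771 (95% interval of the share 6.11% to 8.01%) in distal intergenic regions. Among peaks of 4 to 6 kb, 32.2% (30.0% to 34.4%) of 1700 members, 36.9% (34.4% to 39.5%) of 1383 strong shared peaks and 33.9% (30.6% to 37.4%) of 743 strong peaks only in *Nsd2* fl/fl lay at promoters. Distal intergenic shares at this width were 19.0% (17.2% to 20.9%), 11.1% (9.58% to 12.9%) and 13.9% (11.6% to 16.5%). At this width the promoter interval of the members ended just below the start of that of the shared peaks, both at 34.4% when rounded. It overlapped that of the strong *Nsd2* fl/fl-only peaks. The members' intergenic interval lay above those of these other strong peaks, but not apart from all peaks. All autosomal *Nsd2* ΔIE peaks of this width, members included, had 31.1% at promoters and 18.9% in distal intergenic regions, both inside the members' intervals. Weaker unshared peaks of this width had 24.4% (22.5% to 26.5%) at promoters and 25.7% (23.7% to 27.8%) in distal intergenic regions.

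**Figure D2:**
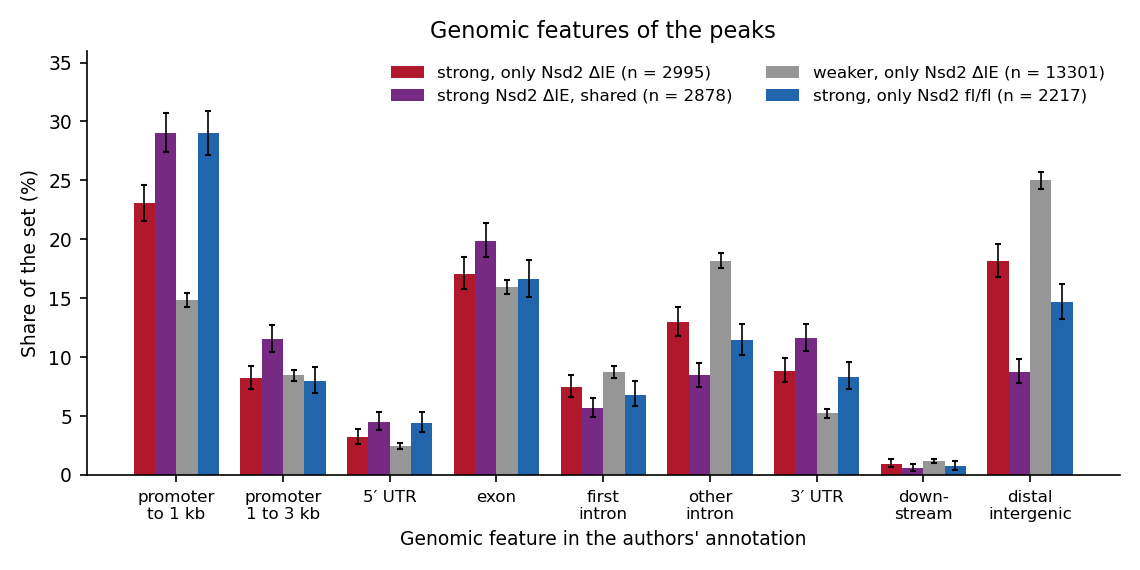
Share of each peak set (vertical axis, %) in each genomic feature of the authors' annotation (horizontal axis), for the 2995 strong peaks only in *Nsd2* ΔIE, the strong shared and weaker unshared *Nsd2* ΔIE peaks and the strong peaks only in *Nsd2* fl/fl. Bars are shares and whiskers 95% Wilson intervals, and the members (red) lie between shared peaks (purple) and weaker unshared peaks (grey) at promoters within 1 kb and in distal intergenic regions.

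Within 1 kb of a TSS lay 23.0% (21.6% to 24.6%) of members, against 29.0% of strong shared peaks. Exons held 17.1% of members, 3′ UTRs 8.85%, first introns 7.48%, 5′ UTRs 3.24% and the downstream ends of genes 0.935%. The median distance from a member to the nearest TSS was 8972 bp (8250 to 9688), against 5063 bp (4662 to 5602) for strong shared peaks and 12085 bp for weaker unshared ones. Over all autosomal *Nsd2* ΔIE peaks it was 9890 bp (9610 to 10135), an interval that overlapped that of the members. Split by rank into 4 parts, the strongest members lay at promoters in 35.4% (32.0% to 38.9%) and in distal intergenic regions in 13.8% (11.5% to 16.4%). The weakest had 26.7% (23.7% to 30.0%) and 23.1% (20.2% to 26.2%). Since the nearest gene was predicted or noncoding for 47.5% (45.7% to 49.3%) of the members, many of their gene names carry no known role. That share was close to the 48.1% (47.4% to 48.7%) of all autosomal *Nsd2* ΔIE peaks, and it was 39.4% for strong shared peaks and 52.1% for weaker unshared ones.

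Where a member covered a TSS, the highest signal within it mostly lay away from the start. Of these 500 peaks, 100 (95% interval of the share 16.7% to 23.7%) had their highest signal within 500 bp of the TSS and 37.2% (33.1% to 41.5%) within 1000 bp, and the median distance was 1452 bp (1260 to 1626). It lay on the gene's side in 53.2% (48.8% to 57.5%). Strong shared peaks had 16.2%, 31.3%, 1683 bp and 58.4% for the same values. Within 500 bp, within 1000 bp and at the median, weaker unshared peaks had 31.1%, 56.8% and 862 bp, and the wider strong peaks only in *Nsd2* fl/fl had 11.5%, 25.8% and 2119.5 bp. The shares near the TSS fell as the median width of the whole sets rose. That width was 3171 bp for weaker unshared peaks, 4749 bp for members, 5143.5 bp for strong shared peaks and 6553 bp for strong *Nsd2* fl/fl-only peaks. The part of width in these values was not tested. Among the 5 strongest members within 1 kb of a TSS, *Pfkfb4* had its highest signal 406 bp into the gene. *Mpped1* had it before the start, at -2387 bp, while *Pla2g2f*, a secreted phospholipase (72601 over 9783 bp), and *Cdh22*, a cadherin (71618 over 10384 bp), had it 5192 bp and 5544 bp into the gene. For the 1111 members whose midpoint lay inside the nearest gene, the median position was 0.28 of the way from start to end, against 0.35 for strong shared peaks. It was 0.29 for weaker unshared peaks, 0.30 for all autosomal *Nsd2* ΔIE peaks and 0.28 for the strong peaks only in *Nsd2* fl/fl, all near the members.

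Most members had an *Nsd2* fl/fl peak in the same neighbourhood, but few stood directly beside one. The median gap to the nearest *Nsd2* fl/fl peak was 11996 bp (11282 to 12866), and 93.1% (92.2% to 94.0%) of members had one within 100 kb. Within 10 kb the share was 45.0% (43.2% to 46.8%), and within 1 kb it was 7.65% (6.75% to 8.65%), or 229 members. Of these, 32 were within 100 bp and 8 within 10 bp, and a small shift of a peak's edge would have made them shared. Weaker unshared peaks lay farther away, at a median of 20015 bp, with 33.6% within 10 kb. The gap from strong *Nsd2* fl/fl-only peaks to the nearest *Nsd2* ΔIE peak had a median of 10224 bp, with 49.3% within 10 kb. Within 100 kb, 84.6% of weaker unshared and 95.8% of strong *Nsd2* fl/fl-only peaks had a peak of the other library. For all autosomal *Nsd2* ΔIE peaks, shared ones included, it was 90.4%, near the members' share. The number of peaks in the other library bears on these distances, and their part in the difference was not tested.

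**Figure D3:**
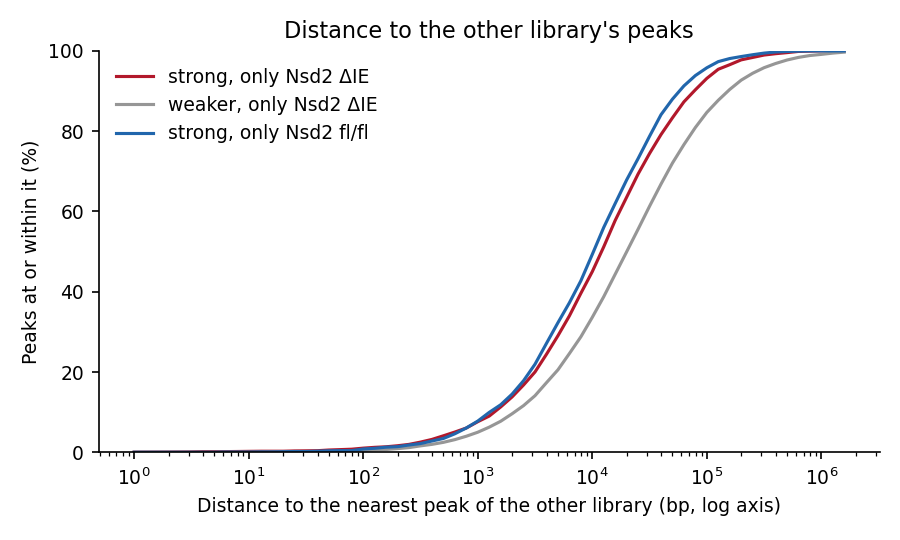
Cumulative share of peaks (vertical axis, %) that have a peak of the other library within the distance on the horizontal axis (bp, log axis). Curves are the members (red), the weaker unshared *Nsd2* ΔIE peaks (grey) and the strong peaks only in *Nsd2* fl/fl (blue), and the members' curve crosses the middle at 11996 bp against 20015 bp for the weaker peaks.

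The 5 members closest to an *Nsd2* fl/fl peak stood 1 to 4 bp from it. *Gm52852* stood 1 bp from an *Nsd2* fl/fl peak of 13141 bp with a summed signal of 95539, *Klhl40*, a muscle protein of the Kelch family, 2 bp from one of 5650 bp, and *Fadd*, the adaptor of death receptors, 3 bp from one of 3749 bp. *Srebf1*, the master regulator of fatty acid synthesis, stood 4 bp from one of 5089 bp, and *Gm35458* 1 bp from one of 3942 bp. At these 5 places both libraries had called signal side by side. The farthest member, 1898041 bp from any *Nsd2* fl/fl peak, lay in exon 11 of 11 of *Zfhx4*, a zinc finger homeobox factor, at chr3:5472559-5478092, with a summed signal of 34565. The next 4 were those of *Gm21037* (819685 bp), *Ap1s3*, a subunit of an adaptor complex for vesicle coats (813200 bp), *Gm11675* (677754 bp) and *Tmem135* (677565 bp). The nearest genes of all 5 had no *Nsd2* fl/fl peak.

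The members were annotated to 2662 genes, which is 19.6% of the 13595 genes with any *Nsd2* ΔIE peak. Protein-coding genes with a member were 6.74% of those in the RefSeq table. A single member was found in 2379 genes, 2 in 240, 3 in 36 and 4 in 7. Of these genes, 1562 had an *Nsd2* fl/fl peak elsewhere, and 1100 had none. Counted by peak, 61.2% (59.4% to 62.9%) of members belonged to a gene with an *Nsd2* fl/fl peak, below the 69.3% (68.7% to 69.8%) of all autosomal *Nsd2* ΔIE peaks and the 94.9% of strong shared peaks, which meet an *Nsd2* fl/fl peak by definition. For weaker unshared peaks it was 56.6% (55.7% to 57.4%). A strong peak found only in *Nsd2* fl/fl was present in 345 of the genes, 13.0% of the 2662 with a member and 17.1% of the 2020 with such a peak. Over the 18187 genes in either list, 2020 had such a peak and 2662 had a member. In these 345 genes, strong unmatched peaks lay in both libraries at different positions.

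For 714 genes the member was the sole peak in either list. The strongest of these were *Mob3a* and *Ccdc97*, given above, then *Pla2g2f* (72601) and *Gak*, a kinase that helps to strip clathrin from vesicles (71074, annotated to a 5′ UTR). The fifth was *Lat*, the adaptor that links the T cell receptor to its signalling chain, with 67043 over its start (chr7:125967346-125976656). For *Lat*, an *Nsd2* fl/fl peak of another gene lay 1196 bp away, and for *Gak* the gap was 37240 bp. A gene with no *Nsd2* fl/fl peak of its own could therefore still have one close by.

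Of the 7 genes with 4 members, the 5 whose members were widest in total are given, and each had further peaks in both libraries. *Rbfox1*, a splicing regulator of neurons and muscle, had 4 members among 23 *Nsd2* ΔIE peaks, and 8 *Nsd2* fl/fl peaks. One of its members covered an annotated start (chr16:5702113-5706225, 25403), one lay in a distal intergenic region, and the others lay in introns 2 and 3 of 16, the strongest with 36530. *Gria1*, a subunit of AMPA-type glutamate receptors, had its 4 members in intron 2 of 16, with summed signals of 26979, 39664, 26867 and 32025, among 11 *Nsd2* ΔIE and 4 *Nsd2* fl/fl peaks. *Celsr1*, a cadherin of planar cell polarity, had 4 members among 6 *Nsd2* ΔIE peaks, with 44722 and 45245 in intron 1 of 34, 26372 over a start and 28493 in exon 3 of 35. *Tbc1d22a*, a TBC-domain gene, and *Hivep3*, a zinc finger factor, had 4 each as well, between 26189 and 48229. In these 5 genes, *Nsd2* fl/fl peaks lay at other positions of the same gene.

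Members had another of their own set nearby less often than the strong shared peaks had. Another member lay within 50 kb of 33.9% (32.2% to 35.6%) of them and within 10 kb of 9.98%, against 54.8% (52.9% to 56.6%) and 25.6% of strong shared peaks. The same held in *Nsd2* fl/fl, with 27.0% (25.2% to 28.9%) and 7.49% of the strong peaks only in that library, against 56.2% (54.3% to 58.0%) and 24.8% of its strong shared peaks. The overlap rule bears on this contrast, since a broad peak of one library can make several neighbouring peaks of the other shared together. Its part was not tested. Linked at 50 kb, the members formed 1980 single regions, 368 pairs, 67 groups of 3, 11 of 4, 2 of 5 and 4 of 6. The longest group, 6 members over 158.9 kb at chr11:96801050-96959977, ran past *Cdk5rap3*, *D030028A08Rik*, *Gm51916*, *Gm11533*, *Mrpl10*, a protein of the mitochondrial ribosome, and *Mir8103*. Within it the members covered 36068 bp and 4 *Nsd2* fl/fl peaks covered 15758 bp. The second, 5 members over 137.2 kb at chr7:143998550-144135762, ran from *Cttn*, which encodes the actin-binding cortactin, through *Ppfia1*, a liprin of cell adhesion sites, to *Fadd*. The third, 6 members over 125.8 kb at chr8:12932123-13057882, lay in and beside *Mcf2l*, and there 5 *Nsd2* fl/fl peaks covered 28484 bp against 25962 bp of members. All 3 groups were interleaved with *Nsd2* fl/fl peaks.

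By autosome, the number of members per Mb ran from 0.487 on chromosome 3 (76 members) to 2.14 on chromosome 11 (254 members). The density of all *Nsd2* ΔIE peaks had the same extremes, with 5.22 per Mb on chromosome 3 and 14.5 per Mb on chromosome 11. The share of strong peaks without an *Nsd2* fl/fl counterpart ran from 43.6% on chromosomes 10 (37.1% to 50.3%) and 19 (36.1% to 51.4%) to 66.1% on chromosome 3 (57.0% to 74.1%). The intervals of chromosome 3 and of chromosome 1, at 58.1% (52.8% to 63.2%), lay above the 51.0% of all autosomes. Those of chromosome 10 and of chromosome 7, at 46.3% (42.0% to 50.8%), lay below it. The rule used this share, so these values are a description. The X chromosome, outside the rule, had 5 peaks in *Nsd2* ΔIE and 1 in *Nsd2* fl/fl.

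**Figure D4:**
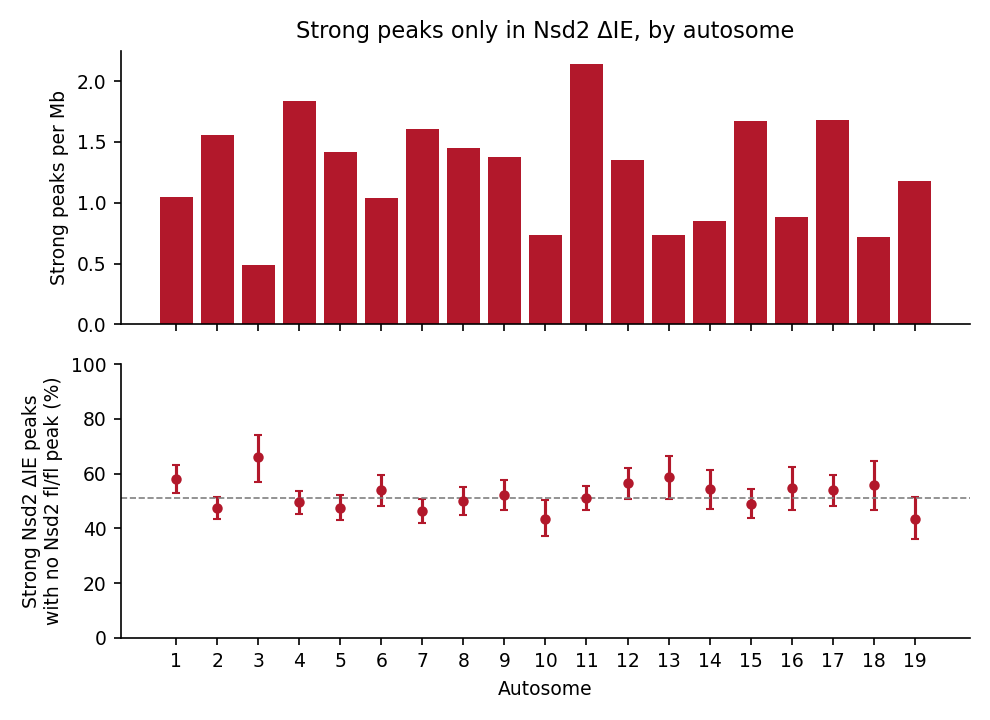
Strong peaks only in *Nsd2* ΔIE per Mb of each autosome (upper panel, bars from 0) and the share of strong *Nsd2* ΔIE peaks without an *Nsd2* fl/fl peak (lower panel, %, points with 95% Wilson intervals, the dashed line at 51.0%). Density runs from 0.487 to 2.14 per Mb, while the share stays between 43.6% and 66.1%.

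Gene lists for the cell types and pathways of the colon held 290 genes, and 45 of them had a member, 45 of the 143 with any *Nsd2* ΔIE peak. The shares over all genes, given above, were 6.74% of protein-coding genes and 19.6% of genes with any *Nsd2* ΔIE peak. In the reverse direction, 22 of the 290 had a strong peak only in *Nsd2* fl/fl, against 2020 of the 18187 genes in either list. Most lists hold few genes, the rule itself fixed these counts, and nothing was read from them about a single list. Among 18 epithelial markers, 10 had an *Nsd2* ΔIE peak, 8 an *Nsd2* fl/fl peak and 5 a member. These were *Vil1*, the actin-bundling villin of microvilli, *Hnf4a*, a transcription factor of enterocytes, *Krt20*, a keratin of differentiated cells, *Muc2*, the main mucin of goblet cells, and the adhesion gene *Cdh1*. The *Vil1* member lay in exon 13 of 20 (chr1:74464389-74471248, 6860 bp, 40846), and the *Hnf4a* member in exon 4 of 10 (33850). *Krt20* had one in exon 3 of 8 (31472) and no *Nsd2* fl/fl peak, and *Muc2* had one in exon 29 of 48 (26600) and one in its 3′ UTR (28421). None of these lay at a promoter.

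The start of *Vil1*, whose promoter drives Cre in these mice, carried a shared peak. In *Nsd2* ΔIE it had 13479 bp and 76.8 per bp, against a median of 6.32 per bp over all autosomal peaks of that list. In *Nsd2* fl/fl it had 13184 bp and 64.9 per bp, against a median of 6.65 per bp for the strong shared peaks of that list. The scaling for depth is not stated, so the densities were not compared between the libraries. The *Vil1* member had 5.95 per bp and lay 9992 bp downstream of the *Nsd2* fl/fl peak. This dense peak was present in both libraries. Whether a transgene that holds *Vil1* sequence was present, or added reads at the start, in either library, was not tested.

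Markers of other cell types also had members. Of 8 enteroendocrine markers, *Neurog3*, which specifies endocrine cells, had one over its start, 7113 bp wide with 38671, and an *Nsd2* fl/fl peak lay 2791 bp upstream. Of 7 endothelial markers, *Pecam1* (41338), *Vwf* (36133) and *Tie1* (27105) had one, and of 12 neuron and glia markers, *Ret* (28822), *Nos1* (35167 and 29041) and *S100b* (31636 and 29845). T cell markers had 2 of 8, with *Lck*, the kinase of the T cell receptor (32817), and *Bcl11b*, a factor of T cell commitment (30910), both at promoters. Myeloid cells had *Csf1r* (26224) of 8 markers, fibroblasts *Pdgfrb* (35910) of 9, and the 8 B cell and 9 smooth muscle markers had none, although 5 and 6 of these had an *Nsd2* ΔIE peak and 3 and 5 an *Nsd2* fl/fl peak. Of the fibroblast markers, 1 had any *Nsd2* ΔIE peak and 3 an *Nsd2* fl/fl peak, and of the myeloid markers 4 and 2. In the same order, T cell markers had 4 and 4 and endothelial markers 5 and 4. Neuron and glia markers had 7 and 7, and enteroendocrine markers 2 and 3. Marker genes of cell types outside the epithelium were thus also the nearest genes of members. Some of these members lay away from the gene: both of *Nos1* were distal intergenic, at -81902 and -55463 bp from its start, and the stronger one of *S100b* was in exon 23 of 38 of *Dip2a*, 20703 bp from the *S100b* start. The *Csf1r* member was annotated to a 3′ UTR, at -18143 bp from the *Csf1r* start. A difference in cell types between the tissue pieces was not tested.

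**Figure D5:**
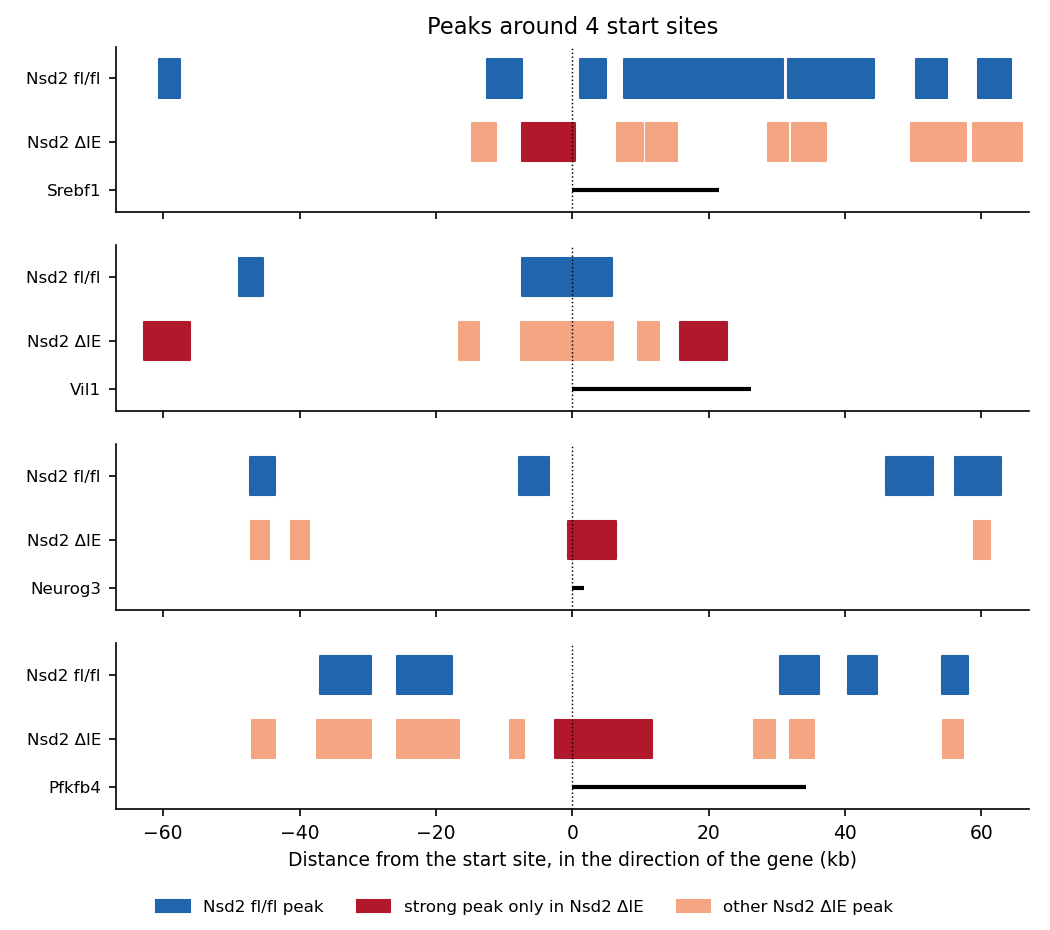
Peaks of both libraries around the start sites of *Srebf1*, *Vil1*, *Neurog3* and *Pfkfb4* (horizontal axis, kb from the start in the direction of the gene, whose length is the black line). Blue bars are *Nsd2* fl/fl peaks, red bars strong peaks only in *Nsd2* ΔIE, and light bars other *Nsd2* ΔIE peaks; the *Srebf1* member begins 4 bp from an *Nsd2* fl/fl peak, and the *Vil1* member lies inside the gene, away from the shared peak at its start.

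Of 12 enzymes that write or erase H3K36 methylation, *Kdm2b*, a demethylase of this lysine, had a member, at its promoter (33768 over 5703 bp), while 7 had any *Nsd2* ΔIE peak and 6 an *Nsd2* fl/fl peak. Of 18 Polycomb and DNA methylation genes, 8 had any *Nsd2* ΔIE peak, 12 an *Nsd2* fl/fl peak and 3 a member. *Dnmt3a* had 2, one over a start (38874). The other (38878) was annotated to a 3′ UTR but lay at -18480 bp from the *Dnmt3a* start, outside the gene body. *Tet3*, an oxidase of methylated cytosine, had one at its promoter (30460), and *Tet2* one in a distal intergenic region (28960). The *Tet2* member lay 122552 bp from the nearest *Nsd2* fl/fl peak, while that of *Tet3* lay 1035 bp away.

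Of 16 genes of the unfolded protein response none had a member, while 2 had any *Nsd2* ΔIE peak and 3 an *Nsd2* fl/fl peak. Among 18 genes of the JNK cascade, 7 had any *Nsd2* ΔIE peak and 5 an *Nsd2* fl/fl peak. A strong peak only in *Nsd2* fl/fl was present in 1 of them. *Map2k7*, a kinase of JNK (29435), and *Mapk8*, which encodes a JNK (26255), had members at their promoters, and neither had an *Nsd2* fl/fl peak. The gaps to the nearest one were 3801 bp and 55264 bp. Of 21 tight junction and adhesion genes, *Tjp1*, the scaffold ZO-1 (28065 in intron 2 of 29), and *Cdh1* (26089 in intron 2 of 15) had members, and both had *Nsd2* fl/fl peaks elsewhere. Any *Nsd2* ΔIE peak was present in 8 of the 21, and an *Nsd2* fl/fl peak in 8.

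Nuclear receptors and their coregulators had 7 of 27, with *Ncoa3*, *Ppard* (43091), *Rxrb*, *Ncoa2* (37988 in intron 4 of 21), *Hnf4a*, *Ppara* and *Rara*, while 16 had any *Nsd2* ΔIE peak and 20 an *Nsd2* fl/fl peak. *Rxrb*, the shared partner of many receptors, had a member of 6129 bp over its start (38159) that stood 9 bp from an *Nsd2* fl/fl peak of *H2-Ke6*. Of 24 fatty acid and cholesterol genes, 17 had any *Nsd2* ΔIE peak, 13 an *Nsd2* fl/fl peak and 5 a member. The strongest was that of *Srebf1*, at chr11:60111001-60118834, 7834 bp with a summed signal of 57102, which filled the stretch from -7.381 kb to 0.452 kb around the start. *Nsd2* fl/fl peaks flanked it, one ending 4 bp farther upstream and one beginning 1.101 kb inside the gene. Others were *Hmgcs1*, an enzyme of cholesterol synthesis (30511, over its start), *Fabp1* (32863) and *Apob*.

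Cytokine and NF-kB genes had 5 of 25, namely *Tlr5*, the receptor for flagellin (31817 over a start), *Rela*, a subunit of NF-kB (31616 in the 3′ UTR), *Tlr2* (28450, in exon 28 of 35 of *Tmem131l* and at -64270 bp from the *Tlr2* start), *Cxcl1*, a chemokine for neutrophils (27719 in a distal intergenic region), and *Nfkbia*. In this list 16 genes had any *Nsd2* ΔIE peak and 12 an *Nsd2* fl/fl peak. TGF-beta and Smad genes had 4 of 21, with *Smad1* (30552 in intron 1 of 6), *Smad6* (27583), *Tgfb2* (26340) and *Ski* (25549). Of these 21 genes, 7 had any *Nsd2* ΔIE peak and 11 an *Nsd2* fl/fl peak. The 11 included 3 of the 4 with a member, and 2 of the 21 had a strong peak only in *Nsd2* fl/fl. Wnt and Notch genes had 2 of 25, *Tcf7l2* (31922 in intron 4 of 14) and the Notch ligand *Dll1* (28904), while 14 had any *Nsd2* ΔIE peak and 11 an *Nsd2* fl/fl peak. Across all lists, *Nos1*, *Rela*, *Smad6*, *Tcf7l2*, *Tjp1* and *Tlr5* had both a member and a strong peak found only in *Nsd2* fl/fl. At *Rela* the *Nsd2* fl/fl peak lay at the promoter (46836 over 6835 bp), and at *Nos1* it stood 114 bp from a member.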

How the data were processed

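The members, gene lists and alternatives were chosen with earlier results of these data known. Peaks were called by the authors per library, without pooling, and the deposited summed signal, a coverage signal added over each peak, was used as given. The submitters' processing notes name Bowtie2, SEACR, deepTools and ChIPseeker without versions, and list hg38 although the organism is mouse. The build of the coordinates is not given in the sources used here. Of 9615 transcripts with the same length in GRCm38.p6, 199 had the same start, so no peak was placed by that table, which gave only the promoter windows printed with their own positions, and the base composition of the peaks was not analysed. Widths and distances to the TSS, in bp, and features are the authors' deposited annotation. Overlaps, gaps and shares come from scripts in Python 3.11.15 (pandas 2.3.3, numpy 2.4.6), with Wilson intervals from scipy 1.17.1, binomial order-statistic intervals for medians, and plots from matplotlib 3.10.9. The functions were tested on simulated lists. Read depth is unknown.

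Named were *Nsd2*, the strongest, densest, widest, nearest and farthest members, those at the limit, the strongest at promoters or with no other peak of their gene, the genes with most members, the longest groups and up to 4 genes of each list. Genes of a list beyond these are named from its count, chosen after their values were seen. Some genes that this rule names are not reported here. The promoters shown were the strongest with 1 entry in the table and a matching gene length, chromosome 18 left out.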

Additional observations from a re-analysis of the deposited data

How the results depend on the processing

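No paired analysis was possible because there was 1 library for each genotype. The base composition of the members was not run, since no genome of the lists' build was used. Read depth is unknown, and regions under the summed-signal limit of a list cannot be told apart from regions that lack the mark. Of 113 alternative values, 50 stayed within the interval of the value reported, or within 1.5 times a count, and the other 63 follow, in the order of the report. Beyond the peaks that each choice adds or removes, the cause was not tested. Members lay at promoters less often and in distal intergenic regions more often than the other strong peaks under all 7 other choices of the members.

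With the strongest 10% there were 858 members in 822 genes, 36.6% of the strong peaks. Of these, 35.0% lay at promoters, 14.3% in distal intergenic regions, 51.6% within 10 kb of an *Nsd2* fl/fl peak, 14.0% within 50 kb of another member and 44.5% by a predicted or noncoding gene. The medians were 7485 bp to the TSS, 6299 bp of width, 6.57 per bp and 9545 bp to an *Nsd2* fl/fl peak. With the strongest 50% there were 7128 members in 5669 genes, 60.7% of the strong peaks, and 70 listed genes had one instead of 45. The shares, in the same order, were 28.0%, 21.0%, 39.9%, 51.9% and 50.1%, the medians 10171.5 bp, 3961 bp, 6.37 per bp and 14751 bp, and 59.1% of members were of a gene with an *Nsd2* fl/fl peak.

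Ranked by mean signal per bp, 63.0% of strong peaks were unshared, 24.8% of them at promoters and 22.6% in distal intergenic regions, with medians of 10532 bp to the TSS, 2519 bp of width and 7.98 per bp. That choice gave 3700 members, of which 807 were the same regions, 26.9% of the members and 21.8% of the others. The choice of the ranking value thus decided which regions were members.

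When peaks within 1 kb of an *Nsd2* fl/fl peak were also removed, 47.1% of strong peaks remained, the median gap was 13678.5 bp, 40.5% had an *Nsd2* fl/fl peak within 10 kb, 59.1% were of a gene with one and 31.1% lay within 50 kb of another member. With 5 kb, 36.2% remained, with medians of 20811.5 bp for the gap, 10542.5 bp to the TSS and 6.43 per bp. Then 28.2% lay at promoters, 21.3% in distal intergenic regions, 22.5% within 10 kb of an *Nsd2* fl/fl peak, 52.5% in a gene with one, 23.7% within 50 kb of another member and 50.1% by a predicted or noncoding gene, and 29 listed genes had a member. When peaks were removed if *Nsd2* fl/fl peaks covered at least 50% of them, 65.1% remained, 33.2% of them at promoters, 16.1% in distal intergenic regions, 56.9% within 10 kb of an *Nsd2* fl/fl peak, 68.0% in a gene with one and 43.6% within 50 kb of another member. The medians were 8073.5 bp to the TSS, 4826.5 bp of width and 6853.5 bp for the gap.

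Joining peaks within 1 kb gave a median width of 4915 bp, 6.43 per bp and 31.5% within 50 kb of another member. A promoter of 1 kb held 23.0% of members, 26.6% were of a gene with an *Nsd2* fl/fl promoter peak, and 9.98% lay within 10 kb of another member. All chromosomes, and members of 4 to 6 kb alone, a choice made after seeing the data, gave values within the intervals.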
